A study of Mus musculus with 24 samples.

Results

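Histone genes supply the proteins that package DNA, and they were followed here gene by gene in mouse T helper cells treated with 2 inhibitors of transcription elongation. A gene was taken as a member when its probe's accession was paired with a histone symbol, in the H1, H2A, H2B, H3 and H4 series or as one of the replication-independent variants H1f0, H2ax, H2az1, H2az2, H3f3a and H3f3b. This gave 53 of the 20022 genes with a symbol on the array, carried by 62 of 26425 probes: 9 H1, 13 H2A, 10 H2B, 8 H3, 7 H4 and 6 variant genes.

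On each of 24 dual-colour arrays the Cy3 dye marked the RNA of 1 culture and the Cy5 dye that of naive CD4+ T cells, and values are the log2 ratio of the 2 (level against naive cells). The cells came from female C57BL/6 mice and had been polarized in culture to Th1 (14 arrays) or Th2 (10 arrays). They received the vehicle DMSO, 50 or 500 nM of JQ1, which displaces BET bromodomain proteins from chromatin, or 1 or 10 µM of flavopiridol, which inhibits the elongation kinase P-TEFb, each in unstimulated and in reactivated cells. Cells were taken after 6 hr, and in the Th1 line the vehicle and the higher JQ1 dose were repeated at 24 hr. For the Th2 vehicle arrays the labels give both times, so the time of that control is not known. No condition was repeated on a second array. The 4 contexts (Th1 or Th2, unstimulated or reactivated) stood in for replicates in the tests of the drugs, and nothing in the labels says that they were separate experiments. In bulk RNA of this kind, fewer cells with a transcript and less transcript per cell cannot be told apart.

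Most histone genes are expressed only in S phase, when new DNA is packaged. Their mRNAs have no introns and end in a conserved stem-loop bound by SLBP instead of a poly(A) tail. Most of the variants are made throughout the cell cycle from ordinary polyadenylated mRNAs. The labelling kit primes on poly(A), so signal from the first class may come from the share of transcripts that carry a tail, which was not measured. The 47 genes other than the variants lie mostly in clusters on chromosome 13 (35 genes) and chromosome 3 (9 genes). Most of them belong to the S phase class, with exceptions that include the linker genes H1f7, H1f8 and H1f10. The coding sequences of that class are nearly identical within a subfamily, so that a probe may read more than its own gene.

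Of the 53 genes, 41 gave a Cy3 signal well above background on all 24 arrays. Another 5 (H1f3, H1f6, H1f7, H2bc23 and H3c15) did so on 5 arrays or fewer, and no histone probe was saturated. Over the whole array, 36.3% to 52.6% of probes stood well above background in Cy3, the lowest shares on the flavopiridol arrays (36.3% to 42.2%). Cd3e and Cd4, which mark helper T cells, were above background on all 24 arrays. The labels were borne out by Tbx21, which defines Th1 cells, at 5.41 in unstimulated Th1 and -0.02 in unstimulated Th2 cells with DMSO, and by Gata3, which defines Th2 cells, at -0.52 and 1.95. Reactivated Th2 cells also held Tbx21 (4.64) and Ifng (6.20). Of the B cell markers, Ms4a1 was higher in unstimulated DMSO cells than in naive cells (2.39), Cd79a (0.30) and Cd22 (0.08) did not pass the test, and their part in the results was not tested.

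Of the genes described below, 5 are shown with the 250 bases before their transcription start (RefSeq, build GRCm38.p6). Among them is a neighbouring pair of genes with near-identical promoters, whose probes gave opposite values. Capitals mark 3 motifs on either strand: the octamer ATTTGCAT bound by OCT1, which is found in front of H2B genes, the TATA box TATAAA, and CCAAT.
H1f5 (chr13:21780626-21780875, minus strand): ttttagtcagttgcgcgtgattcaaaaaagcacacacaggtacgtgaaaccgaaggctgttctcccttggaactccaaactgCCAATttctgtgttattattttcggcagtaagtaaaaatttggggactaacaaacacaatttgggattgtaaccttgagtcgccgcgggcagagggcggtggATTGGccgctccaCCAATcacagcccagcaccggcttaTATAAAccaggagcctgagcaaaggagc
H1f2 (chr13:23738557-23738806, plus strand): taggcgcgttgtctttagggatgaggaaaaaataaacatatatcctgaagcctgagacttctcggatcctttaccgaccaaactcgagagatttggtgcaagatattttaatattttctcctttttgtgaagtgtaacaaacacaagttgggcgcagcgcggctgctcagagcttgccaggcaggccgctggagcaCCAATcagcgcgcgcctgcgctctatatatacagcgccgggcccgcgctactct
H2ac18 (chr3:96245247-96245496, plus strand): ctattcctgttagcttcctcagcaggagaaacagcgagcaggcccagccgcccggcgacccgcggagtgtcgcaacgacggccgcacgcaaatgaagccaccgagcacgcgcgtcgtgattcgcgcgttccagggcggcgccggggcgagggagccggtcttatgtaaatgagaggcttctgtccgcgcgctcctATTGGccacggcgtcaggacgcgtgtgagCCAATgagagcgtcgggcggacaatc
H2ac19 (chr3:96240375-96240624, minus strand): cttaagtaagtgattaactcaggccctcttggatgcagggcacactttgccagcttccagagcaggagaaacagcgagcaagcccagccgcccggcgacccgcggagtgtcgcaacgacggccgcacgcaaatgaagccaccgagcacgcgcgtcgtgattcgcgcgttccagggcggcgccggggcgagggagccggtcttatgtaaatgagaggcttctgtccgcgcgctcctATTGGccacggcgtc
H3f3b (chr11:116024505-116024754, minus strand): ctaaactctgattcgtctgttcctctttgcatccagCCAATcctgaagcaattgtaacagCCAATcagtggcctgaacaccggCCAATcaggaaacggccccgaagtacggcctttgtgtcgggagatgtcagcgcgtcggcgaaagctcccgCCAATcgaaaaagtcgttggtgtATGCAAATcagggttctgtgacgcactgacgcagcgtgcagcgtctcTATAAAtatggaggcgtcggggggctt
H1f5 and H1f2 encode linker histones, and these stood furthest above naive cells and rose with JQ1, respectively. H2ac18 and H2ac19 encode core histone H2A and lie beside each other on chromosome 3. Their windows matched in 199 of 210 aligned bases (94.8%), with 169 bases in a row the same. H3f3b encodes the variant H3.3, and its window held 1 octamer, 1 TATA box and 4 CCAAT motifs.

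Promoters were found for 47 of the 53 genes (48 entries), and those of H2ax, H2bc4, H2bc21, H3c1, H3c7 and H4c14 were not in the table. The octamer was present in 27.1% of the histone promoters and in 1.6% of all 32851 promoters of the same length. It was found in 66.7% of H2B, 46.2% of H2A and 20% of variant promoters and in no H1, H3 or H4 promoter. CCAAT was present in 81.2% of histone and 33.8% of all promoters, and TATAAA in 43.8% and 12.4%. None of the marked matches overlap in the windows shown, and they are matches of letters, not measured binding sites.

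**Figure D1:**
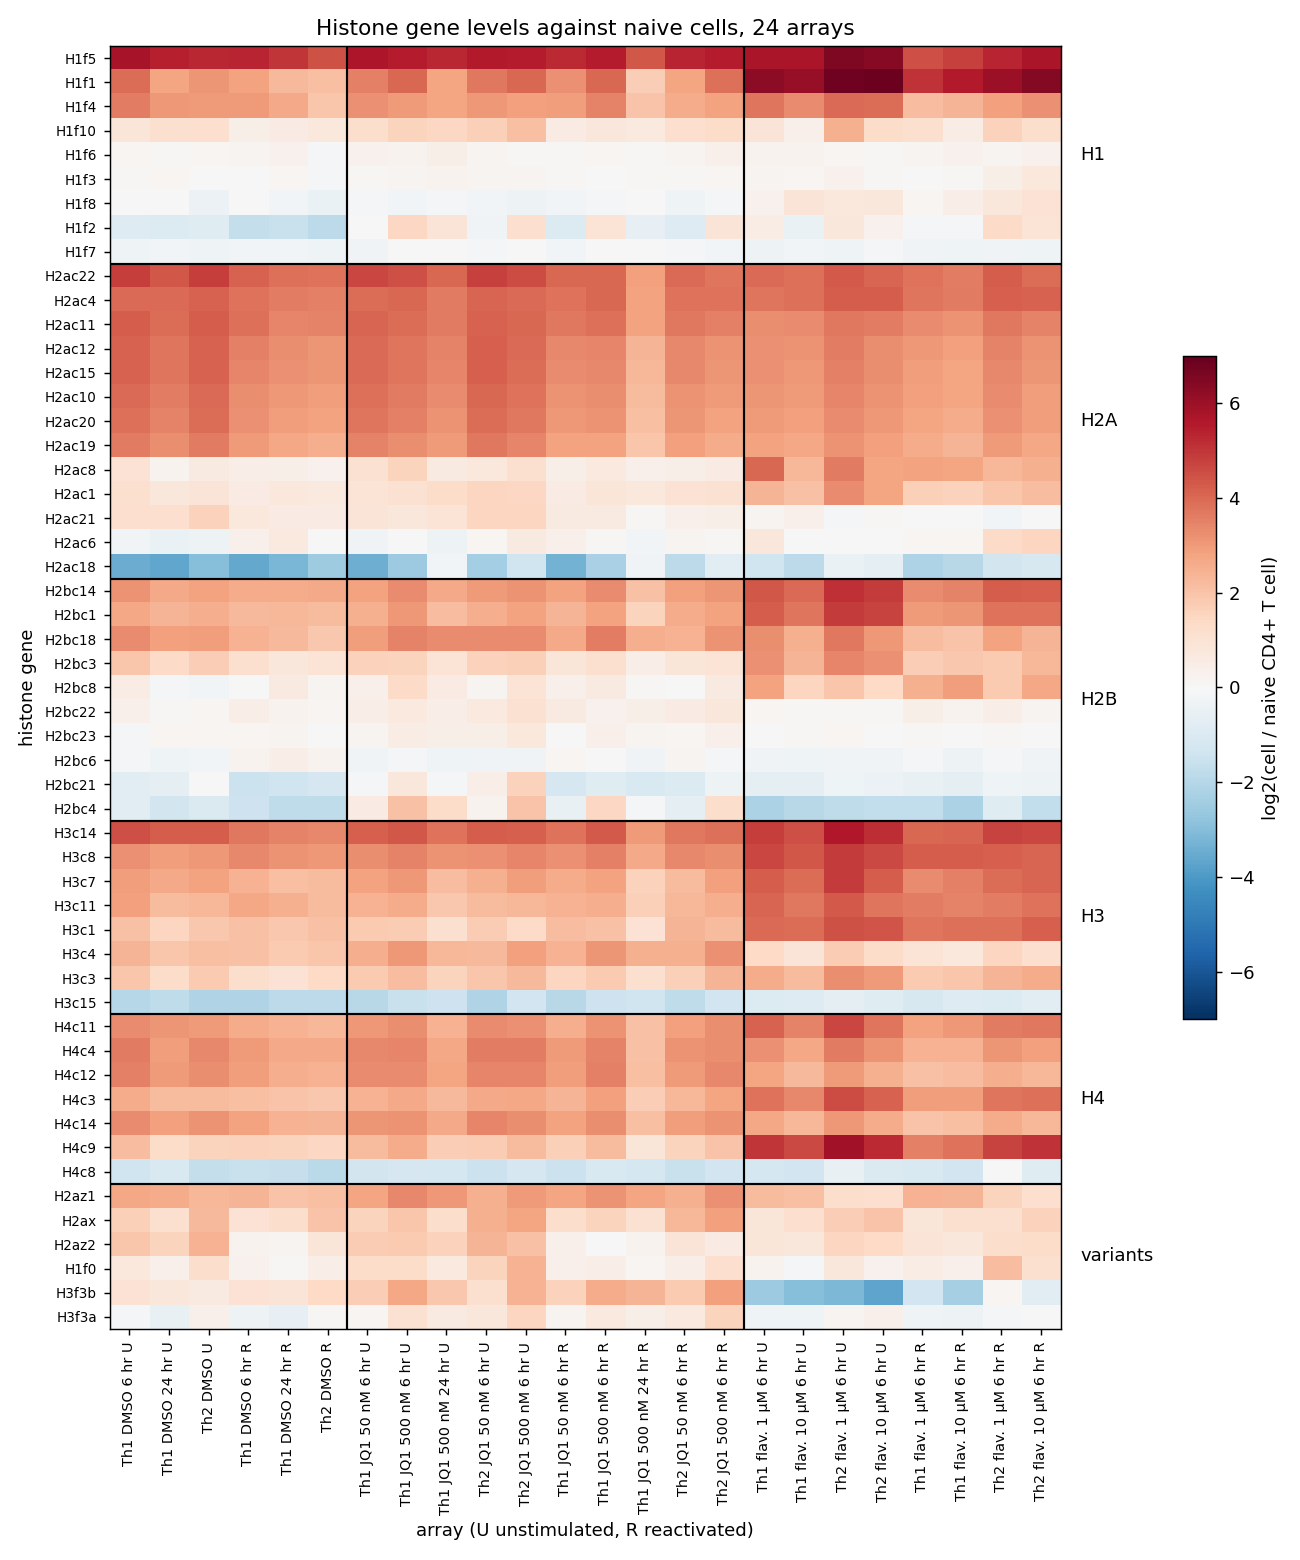
Level of each of the 53 histone genes (rows, by subfamily) on each of the 24 arrays (columns: DMSO, JQ1 and flavopiridol from left to right, U unstimulated and R reactivated), as the log2 ratio to naive CD4+ T cells, with red above and blue below naive cells. H1f5 lay between 4.36 and 6.53 on every array, and H2ac18 lay below 0 on every array, between -3.65 and -0.20.

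The first comparison asked how the cultured cells differed from the naive cells they came from. Most histone genes were far higher in the cultured cells. In unstimulated DMSO cells 37 of the 48 genes tested were called higher than in naive cells and 5 lower, against 33.5% and 25% of all genes tested (limma, adjusted p below 0.05, 3 arrays), and the median histone gene stood at 2.24, where the median of all genes was 0.07. In reactivated DMSO cells 38 were higher and 5 lower, against 39.1% and 32.9% of all genes, with a histone median of 1.99. A gene entered this test by its Cy3 signal, that of the cultured cells, so a gene near background in naive RNA could pass only by being higher. Of the genes tested H1f10, H1f0 and H2bc22 were not above background in naive RNA on any DMSO array. Without these 3, 35 of 45 were higher and 5 lower unstimulated and 36 and 5 reactivated, against 32.4% and 26.1%, and 37.6% and 34.4%, of all genes above background in naive RNA on at least 1 DMSO array. The counts by subfamily below leave them out.

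The linker histone gene H1f5 stood highest. It measured 5.80, 5.46 and 5.27 in unstimulated Th1 cells at 6 hr, Th1 cells at 24 hr and Th2 cells, and 5.31, 5.0 and 4.46 in the same cells reactivated. All 6 arrays thus lay far above naive cells, by 5.51 ± 0.17 (SE, n = 3; limma adjusted p = 8.4e-07) in the unstimulated state. H1f1 (3.25 ± 0.23) and H1f4 (3.19 ± 0.21) were also higher. H1f2, another linker histone, went the other way, at -0.92, -0.98 and -0.87 unstimulated and -1.64, -1.58 and -1.82 reactivated, and was below naive cells on every DMSO array. H1f10 was not well above background in naive cells, so that its level is a bound of at least 2.08-fold higher, given without a test. Of the other 5 H1 genes tested, 3 were higher and 1 lower.

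Among the 13 core H2A genes, 11 were higher and 1 lower in unstimulated cells, with a median of 3.75. H2ac22 stood at 4.81, 4.34 and 4.83 on the 3 unstimulated arrays, followed by H2ac11 (4.12 ± 0.12) and H2ac12 (4.01 ± 0.12). H2ac19 was at 3.62, 3.25 and 3.65. Its neighbour H2ac18, with the near-identical promoter printed above, was at -3.48, -3.65 and -3.0, and was lower than naive cells by a mean of -3.37 ± 0.21 (adjusted p = 2.7e-05). The probes of this pair thus lay on opposite sides of naive cells on all 3 arrays. That of H2ac19 is among the 7 bright H2A probes described next, so the level of H2ac19 alone is not known. The 7 brightest H2A probes (H2ac10, H2ac11, H2ac12, H2ac15, H2ac19, H2ac20 and H2ac22) moved together over the 24 arrays, with pairwise Pearson r of 0.933 to 0.998, and lay within 0.92 to 1.27 of each other on each array. Since these genes encode nearly the same mRNA, their values cannot be taken as 7 separate measurements.

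H2B genes were divided. Of 8 tested, 4 were higher (H2bc18 3.03 ± 0.14, H2bc14 2.86 ± 0.11, H2bc1 2.55 ± 0.10, and H2bc3, above background in naive RNA on 7 of 24 arrays but on none of these 3, and so at least 3.17-fold higher), 2 were lower (H2bc4 -1.04 ± 0.12, H2bc21 -0.46 ± 0.15), and the other 2 were not called. H2bc3 is counted here although it could pass only by being higher. All 7 H3 genes tested were higher, led by H3c14 (4.34 ± 0.10), H3c8 (3.05 ± 0.10) and H3c7 (2.80 ± 0.10). The eighth, H3c15, was above background in naive RNA on all 24 arrays but in the cultured cells on no DMSO array, and so did not enter the test. It stood at -1.98, -1.77 and -2.08 unstimulated and was thus the one H3 gene below naive cells. Of the 7 H4 genes 6 were higher, led by H4c4 (3.32 ± 0.15), H4c12 (3.25 ± 0.14) and H4c11 (3.13 ± 0.10), while H4c8 was lower (-1.38 ± 0.13).

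Of the 5 variants above background in naive RNA 4 were higher than naive cells. H2az1, which encodes the H2A.Z placed around transcription start sites, stood at 2.55 ± 0.12, its paralog H2az2 at 1.96 ± 0.19 and H2ax, whose product is phosphorylated at DNA breaks, at 1.69 ± 0.26. The H3.3 genes were at 0.81 ± 0.12 (H3f3b) and -0.09 ± 0.18 (H3f3a, adjusted p = 0.69). The linker variant H1f0 was not well above background in naive cells and at least 1.72-fold higher, given without a test. In reactivated cells H2az1 (2.16 ± 0.12), H2ax (1.41 ± 0.26) and H3f3b (1.11 ± 0.12) stayed above naive cells, while H2az2 (0.42 ± 0.19, adjusted p = 0.084) and H3f3a (-0.29 ± 0.18) did not pass the test.

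All 21 S phase genes tested were higher too, where 33.5% of all genes were higher and 25% lower, with a median of 2.50, among them Rrm2 (5.74), a subunit of ribonucleotide reductase, and Cdc6 (4.20), which loads the replicative helicase. The 4 proliferation markers were higher (Mki67 6.33, Top2a 5.15, Ccnb1 5.09 and Cdk1 4.75). The share of cells in S phase was not measured, and its part in the histone values was not tested. Against the same shares, 8 of 15 genes of histone mRNA transcription and 3′ end processing were higher and 2 lower. They included Slbp (2.79 ± 0.12), the stem-loop binding protein, and Zfp473 (2.76 ± 0.24), a protein of histone pre-mRNA processing. Of 17 histone chaperones 12 were higher and 3 lower, among them Asf1b (4.17) and Chaf1a (4.08), which deliver new H3 and H4 to replicated DNA. Of 4 other histone variants 3 were higher (H2aj 3.18, Cenpa 3.14).

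**Figure D2:**
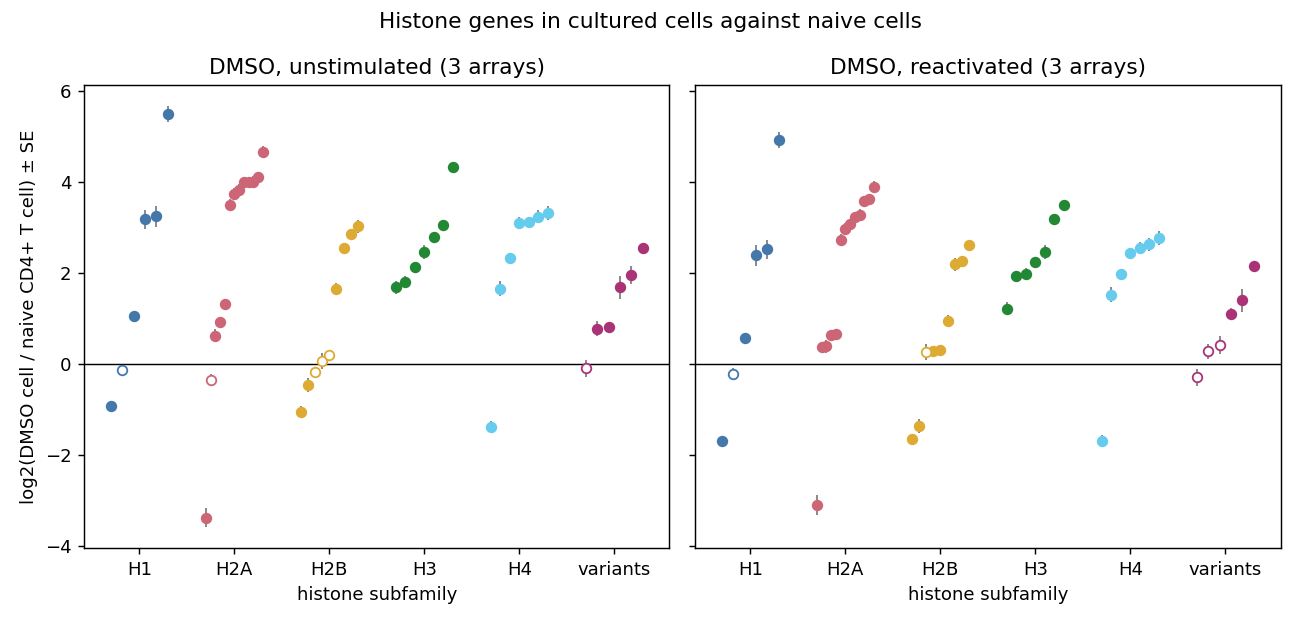
Mean log2 ratio of each tested histone gene to naive CD4+ T cells in DMSO cells, unstimulated (left, 3 arrays) and reactivated (right, 3 arrays), ordered within each subfamily; bars are SE, filled points passed the test and open points did not. H2A, H3 and H4 genes lie mostly above 2, while H2B genes run from -1.04 (H2bc4) to 3.03 (H2bc18) in unstimulated cells.

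Many of these transcripts were called a little lower on reactivation of the T cells. Over the 3 pairs of DMSO arrays, 26 of 48 histone genes were called lower in reactivated cells and 2 higher, against 29.1% and 21.9% of all genes, with a histone median of -0.49 and a median of all genes of -0.05. By subfamily the lower calls were 5 of 6 H1, 8 of 13 H2A, 4 of 9 H2B, 3 of 7 H3, 4 of 7 H4 and 2 of 6 variant genes. The 8 H2A calls include all 7 bright H2A probes, which are not separate measurements. With the arrays shifted to their spike-in controls (RNA added in known amounts before labelling), which moved the median of all genes from -0.05 to 0.22, 13 were lower and 4 higher, against 17.3% and 31.5% of all genes.

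The variant H2az2 fell furthest, from 1.93, 1.54 and 2.42 in unstimulated Th1 cells at 6 hr, Th1 cells at 24 hr and Th2 cells to 0.26, 0.17 and 0.84 after reactivation. The 2 states did not overlap, and the change was -1.54 ± 0.13 (SE, 3 pairs; limma adjusted p = 0.00037). Among genes other than the variants, H2bc21 (-0.89 ± 0.14), H1f1 (-0.86 ± 0.16), H2bc18 (-0.84 ± 0.14), H3c14 (-0.83 ± 0.12), H1f2 (-0.76 ± 0.13), H2ac15 (-0.77 ± 0.14), H2ac20 (-0.77 ± 0.15) and H4c11 (-0.69 ± 0.12) fell by similar amounts. H2bc21 was well above background in Cy3 on only 1 of the 3 reactivated arrays, so the size of its fall is limited by background. The 2 genes that were called higher were H2ac6 (0.72 ± 0.17) and H2bc6 (0.49 ± 0.14), and neither call held without the 24 hr pair (0 genes called higher without either of its arrays). Of the other variants, H1f0 fell (-0.50 ± 0.14), while H2az1 (-0.39 ± 0.14), H2ax (-0.28 ± 0.18), H3f3a (-0.20 ± 0.12) and H3f3b (0.30 ± 0.17) did not pass the test.

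Of 21 S phase genes 8 fell on reactivation (Cdt1 -0.98, Mcm7 -0.87) and 2 of 4 proliferation markers did (Mki67 -0.92, Top2a -0.64). In the 3′ end processing list 1 of 15 rose and 2 fell (Zfp473 -1.31, Lsm10 -0.75), and among 17 chaperones 3 rose and 6 fell (Asf1b -1.22, Ubn1 -1.0), where 21.9% of all genes rose and 29.1% fell. Of 4 other variants 3 fell, including Cenpa (-1.0).

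JQ1 raised the linker H1f2, the core gene H2bc4 and the H3.3 gene H3f3b most, and most H2B, H3, H4 and variant genes were called higher, while few H2A genes were. With 500 nM for 6 hr, 26 of 49 histone genes were called higher than with DMSO and 2 lower, against 17.7% and 29.8% of all genes (limma over 4 contexts), with a histone median of 0.38 and a median of all genes of -0.07. H3c15 entered this test only through JQ1 arrays, since it was above background on none of the DMSO arrays, and had to differ to pass. Without it 25 of 48 were higher and 2 lower, with a median of 0.35, and over all genes above background on at least 1 DMSO array 17.6% and 30% were. The higher calls were then 3 of 6 H1, 2 of 13 H2A, 7 of 9 H2B, 4 of 7 H3, 4 of 7 H4 and 5 of 6 variant genes. With 50 nM 3 histone genes were called higher and 0 lower (H2bc4, H1f2 and H3f3b), against 0.248% and 0.0852% of all genes.

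The number called, here with H3c15 wherever it was tested, varied with the scaling, the block and the arrays used. With each array centred on its median, which put the median of all genes at -0.28, 15 were higher and 11 lower, against 5.70% and 45.1% of all genes. With the spike-in shift (median of all genes -0.61) 4 were higher and 0 lower, against 0.682% and 32.5%, and without the context block 9 and 0, against 2.81% and 4.17%. In Th1 cells alone, whose JQ1 arrays shared a slide with their DMSO arrays and whose control time is known, 11 were higher and 0 lower, against 8.51% and 15%. H2bc4, H1f2 and H3f3b were called in every setting run, those without 1 array included.

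H2bc4, a core H2B gene, rose furthest. With DMSO it stood at -0.80 and -1.43 in Th1 cells at 6 hr (unstimulated, reactivated) and at -1.03 and -1.77 in Th2 cells. With 50 nM JQ1 it was at 0.56 and -0.50 in Th1 and 0.23 and -0.61 in Th2 cells, and with 500 nM at 2.05 and 1.45 in Th1 and 2.02 and 1.25 in Th2 cells. The 3 treatments did not overlap, and both doses lay above DMSO in all 4 contexts, by 1.18 ± 0.09 at 50 nM (adjusted p = 0.00094) and 2.95 ± 0.09 at 500 nM (adjusted p = 4e-08). H1f2 followed, at -0.92, -1.64, -0.87 and -1.82 with DMSO in the same order of contexts and 1.46, 0.97, 1.18 and 0.88 with 500 nM. All 4 treated arrays lay above all 4 controls, a rise of 0.79 ± 0.11 at 50 nM and 2.44 ± 0.11 at 500 nM. Both genes had been lower than in naive cells with DMSO and were above naive cells with 500 nM JQ1.

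The H3.3 genes rose as well. H3f3b stood at 1.00, 1.02, 0.64 and 1.39 with DMSO and 2.70, 2.61, 2.41 and 2.89 with 500 nM JQ1, with no overlap, a rise of 1.64 ± 0.08 (adjusted p = 1e-06) after 0.55 ± 0.08 at 50 nM. H3f3a rose by 1.22 ± 0.09, H2az1 by 0.78 ± 0.09, H1f0 by 0.65 ± 0.16 and H2ax by 0.54 ± 0.09, each in 4 of 4 contexts. H2az2 was lower in 4 of 4 contexts (-0.24 ± 0.08, adjusted p = 0.032), a call lost on leaving out any 1 of 8 of the arrays.

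H2A genes were the subfamily with the fewest higher calls. H2ac18 rose by 1.40 ± 0.12, from -3.48, -3.58, -3.0 and -2.51 with DMSO to -2.56, -2.26, -1.40 and -0.75 with 500 nM JQ1, and so approached the level of naive cells without reaching it. H2ac8 rose by 0.38 ± 0.08 but was at -0.15 with the spike-in shift, and H2ac21 was lower by a mean of -0.20 ± 0.07. The other 10 were not called, with the 7 bright H2A probes all slightly below 0 in the mean (H2ac15 -0.16). Among H2B genes H2bc21 (1.16 ± 0.15) and H2bc8 (0.76 ± 0.14) rose besides H2bc4. H3c4 (0.92 ± 0.10) and H3c3 (0.57 ± 0.11) led the H3 genes. H4c3 (0.57 ± 0.13), H4c9 (0.56 ± 0.07) and H4c8 (0.43 ± 0.08, but -0.10 with the spike-in shift) led H4, and H1f1 (1.00 ± 0.21) and H1f10 (0.62 ± 0.09) rose besides H1f2.

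Of the S phase genes 2 of 21 rose with JQ1 and 3 fell (E2f1 0.47, Mcm3 -0.40), and 2 of 4 proliferation markers fell (Ccnb1 -0.84, Top2a -0.27). Of the 15 transcription and 3′ end processing genes 2 rose and 6 fell. Slbp rose by 0.55 ± 0.11, while Cpsf2 (-0.83) and Zfp473 (-0.58) fell. Of 17 chaperones 4 were higher and 4 lower (Daxx -1.0, Ssrp1 -0.99), and 2 of 4 other variants fell (Cenpa -0.42), where 17.7% of all genes rose and 29.8% fell.

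**Figure D3:**
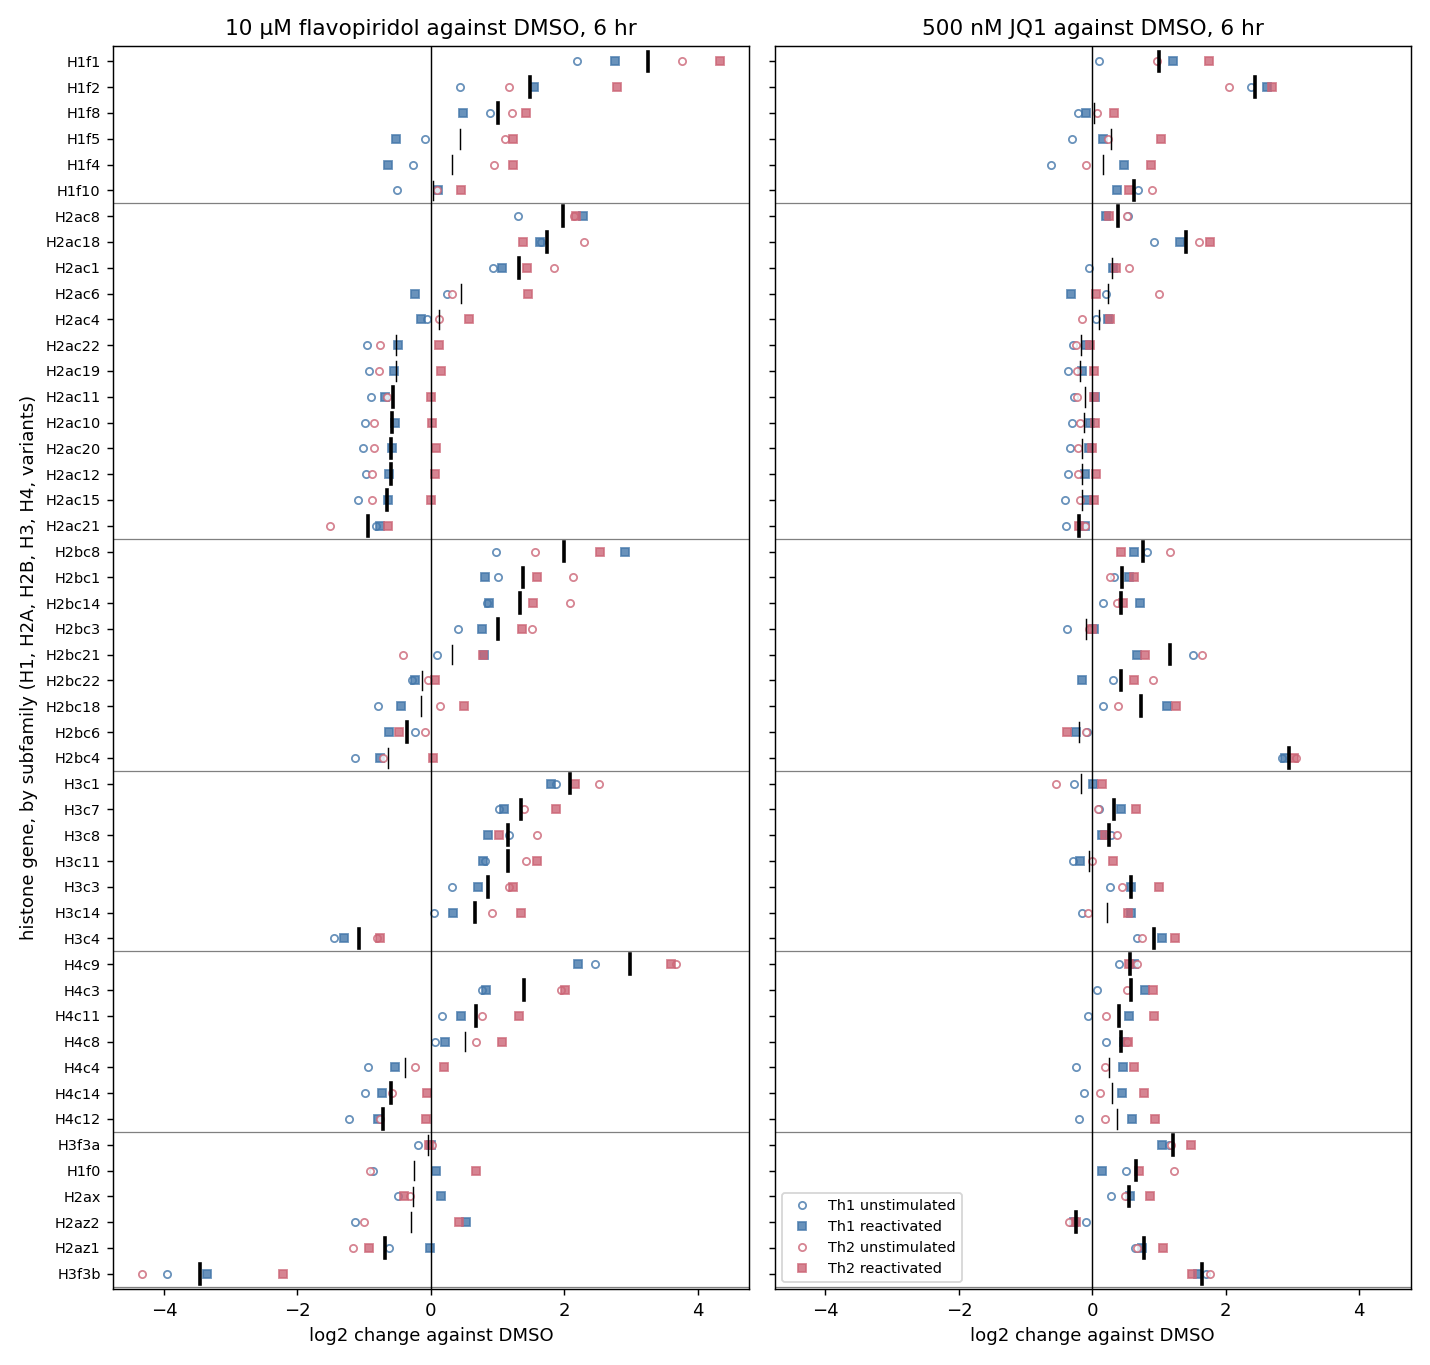
Change of each tested histone gene against DMSO at 6 hr with 10 µM flavopiridol (left) and 500 nM JQ1 (right), on the log2 scale, in each of the 4 contexts (blue Th1, red Th2; open circles unstimulated, filled squares reactivated); vertical marks are means, thick where the gene passed the test. H3f3b lies at -3.46 with flavopiridol and 1.64 with JQ1, and H2bc4 at 2.95 with JQ1.

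Flavopiridol divided the histone genes. With 10 µM for 6 hr, 19 of 48 were called higher than with DMSO and 12 lower, against 15.4% and 33.5% of all genes, with a histone median of 0.22 and a median of all genes of -0.22. The split was 3 higher and 0 lower of 6 H1, 3 and 6 of 13 H2A, 4 and 1 of 9 H2B, 6 and 1 of 7 H3, 3 and 2 of 7 H4, and 0 and 2 of 6 variant genes. With 1 µM 21 were higher and 5 lower, against 16.3% and 35.4% of all genes.

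These directions are relative to the other transcripts. With each array centred on its median, which put the median of all genes at -1.05, 5 histone genes were higher and 15 lower, against 2.28% and 66.7% of all genes. With the spike-in shift (median of all genes -0.96) 9 were higher and 24 lower, against 2.28% and 61.7%. No flavopiridol array shared a slide with its DMSO control, and a fit with random slide effects gave 17 higher and 3 lower, against 10.3% and 23.3%. In Th1 cells alone 12 were higher and 11 lower, against 12% and 25.1%. H1f1, H2ac8, H3c1 and H4c9 (higher) and H2ac21, H3c4 and H3f3b (lower) were called in all of the settings run.

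The linker histone gene H1f1 rose furthest. It stood at 3.91, 2.81, 3.07 and 2.10 with DMSO (Th1 unstimulated and reactivated, then Th2) and at 6.09, 5.56, 6.84 and 6.43 with 10 µM flavopiridol. Every treated array lay above every control, and the change was 3.26 ± 0.34 (SE, 4 contexts; limma adjusted p = 0.00013). The H4 gene H4c9 went from 2.18, 1.60, 1.54 and 1.43 to 4.65, 3.80, 5.21 and 5.03, again without overlap (2.99 ± 0.34). A second H4c9 probe of similar brightness changed by 0.50, so the size of this rise differed between the gene's probes.

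The H3 gene H3c1 rose from 2.06, 2.05, 1.87 and 2.05 to 3.93, 3.86, 4.39 and 4.20 (2.09 ± 0.17), followed by H3c7 (1.34 ± 0.21) and H3c8 (1.16 ± 0.17). H3c4 was the one H3 gene that fell, from 2.37, 2.05, 2.12 and 1.96 to 0.92, 0.75, 1.31 and 1.2 (-1.08 ± 0.16), with no overlap. H1f2 (1.49 ± 0.34) and H1f8 (1.00 ± 0.20) rose besides H1f1, and H4c3 (1.39 ± 0.26) and H4c11 (0.68 ± 0.25, adjusted p = 0.0497) besides H4c9. With each array centred on its median, H1f8, H3c8 and H4c11 changed sign, and H4c11 did so with the spike-in shift too. H4c12 (-0.71 ± 0.20) and H4c14 (-0.59 ± 0.18) fell.

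Genes in head-to-head pairs, which share the bases between their starts, could be read side by side in 3 cases within 500 bases. H2ac8 and H2bc8, with 180 bases between their starts, rose by 1.98 ± 0.27 and 2.00 ± 0.34, and H2ac1 and H2bc1 (281 bases) by 1.32 ± 0.22 and 1.38 ± 0.24. H2ac22 and H2bc22 (240 bases) were at -0.52 and -0.13, neither called. Against naive cells H2ac22 stood at 4.66, and H2bc22, above background in naive RNA on 1 of 24 arrays, has no level there. H2ac18 rose with flavopiridol as with JQ1 (1.74 ± 0.21), and H2bc14 rose by 1.34 ± 0.24.

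Among the variants H3f3b fell most of all histone genes tested. It stood at 1.00, 1.02, 0.64 and 1.39 with DMSO and at -2.96, -2.32, -3.68 and -0.82 with 10 µM flavopiridol, below naive cells in every context and without overlap, a change of -3.46 ± 0.38 (adjusted p = 0.00016). H3f3a, which encodes the same protein from another gene, did not follow, at -0.10, -0.35, 0.34 and 0.07 with DMSO and -0.29, -0.34, 0.36 and 0.04 with 10 µM (-0.05 ± 0.10, 95% interval within -0.29 to 0.19). H2az1 fell by a mean of -0.68 ± 0.19, and H2az2 (-0.30 ± 0.32), H2ax (-0.26 ± 0.14) and H1f0 (-0.26 ± 0.33) were not called.

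The direction went with the brightness of the probe. Histone probes were sorted by their mean log2 brightness over both channels. Of the 17 genes at 13 or above, which include the 7 bright H2A genes, 0 were called higher and 10 lower. Of the 31 genes below 13, 19 were called higher and 2 lower. This threshold was chosen after the values were seen. Of all 873 genes at 13 or above, 15.9% were called higher and 38% lower, and of the 11557 below it 15.4% and 33.1%. In 7 histone genes 2 or more probes were well above background on all 24 arrays, and in 5 of these the brightest and the dimmest such probe changed in opposite directions with flavopiridol. Over the array that held for 23.9% of 1848 such genes, and for 33.5% of the 352 whose brightest probe was at 13 or above. H2ac15 was at -0.65 by its brightest and 0.32 by its other probe, H2az1 at -0.68 and 0.27, H4c12 at -0.71 and 0.37, H4c14 at -0.59 and 1.81, and H3f3a at -0.05 and 0.06. For H3f3b both such probes fell (-3.46 and -2.62), and another, dimmer probe, above background on 20 arrays, was at 0.71. Over the array, the brighter probe was the lower one in 91.2% of those 352 genes. With JQ1 too the higher calls lay mostly in the dimmer probes. Of the 17 genes at 13 or above 4 were called higher and 1 lower, and of the 32 below it, H3c15 included, 22 and 1. Over all genes these shares were 16.8% higher and 28.7% lower at 13 or above and 17.8% and 29.9% below it. The signs of the brightest and dimmest probe differed with JQ1 in 0 of the 7 histone genes and in 18% of the 1848 genes. Whether brightness or the transcript set the direction was not tested, so the falls of the bright H2A and H4 genes and of H2az1 hold for their brightest probe only.

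**Figure D4:**
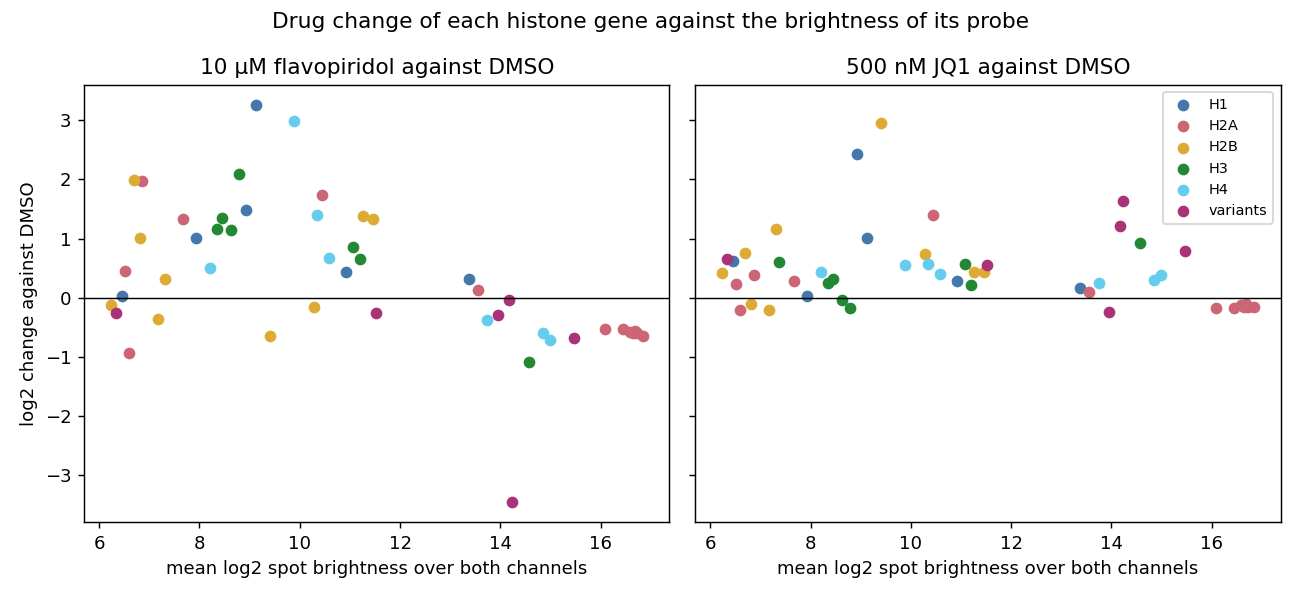
Mean log2 change of each tested histone gene against DMSO (vertical axis) by the mean log2 brightness of its probe over both channels (horizontal axis), with 10 µM flavopiridol on the left and 500 nM JQ1 on the right; colours are subfamilies. With flavopiridol 10 of the 17 genes at a brightness of 13 or above were called lower and 0 higher, and with JQ1 1 lower and 4 higher. Of those below 13, 19 of 31 were called higher and 2 lower with flavopiridol, and 22 of 32 higher and 1 lower with JQ1.

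Many genes of histone 3′ end processing fell with flavopiridol, where 33.5% of all genes did. Of 15 transcription and 3′ end processing genes 9 fell and 2 rose, among them Lsm10 (-2.46), a protein of the histone-specific U7 particle, Zfp473 (-2.38) and Slbp (-1.76 ± 0.45). Of 17 chaperones 6 fell and 2 rose (Daxx -2.78 and Nasp -2.16, which bind H3.3 and H3-H4, and Anp32e 2.09, which removes H2A.Z). Of 21 S phase genes 9 fell and 3 rose (Cdt1 -3.50, Cdc6 -2.54), and all 4 proliferation markers fell (Ccnb1 -1.78, Top2a -1.67, Cdk1 -1.60, Mki67 -0.67). Of 4 other variants 1 rose (Macroh2a1 1.13) and 1 fell (H2aj -0.52).

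The 2 drugs were then set against each other directly, 10 µM flavopiridol minus 500 nM JQ1. Of 50 histone genes 15 were higher with flavopiridol and 20 lower, against 22.9% and 33.9% of all genes, with medians of -0.02 and -0.11. With each array centred on its median 6 were higher and 21 lower, against 6.84% and 53.0%, and with the spike-in shift 8 and 12, against 7.32% and 25.6%. Without H3c15, which was not above background with DMSO or flavopiridol, 14 of 49 were higher and 20 lower, against 23% and 34.2% of all genes above background on at least 1 DMSO array. By subfamily the calls were then 2 higher and 2 lower of 7 H1, 2 and 6 of 13 H2A, 4 and 4 of 9 H2B, 4 and 1 of 7 H3, 2 and 3 of 7 H4, and 0 and 4 of 6 variant genes. H3f3b was lower by a mean of -5.10 ± 0.40, H2bc4 by -3.59 ± 0.30, H3c4 by -2.0 ± 0.16, H2az1 by -1.47 ± 0.19 and H3f3a by -1.26 ± 0.10, each in 4 of 4 contexts. H4c9 (2.43 ± 0.32), H1f1 (2.26 ± 0.30), H3c1 (2.26 ± 0.20) and H2ac8 (1.60 ± 0.22) were higher in 4 of 4. H2ac18, raised by both drugs, was not called.

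**Figure D5:**
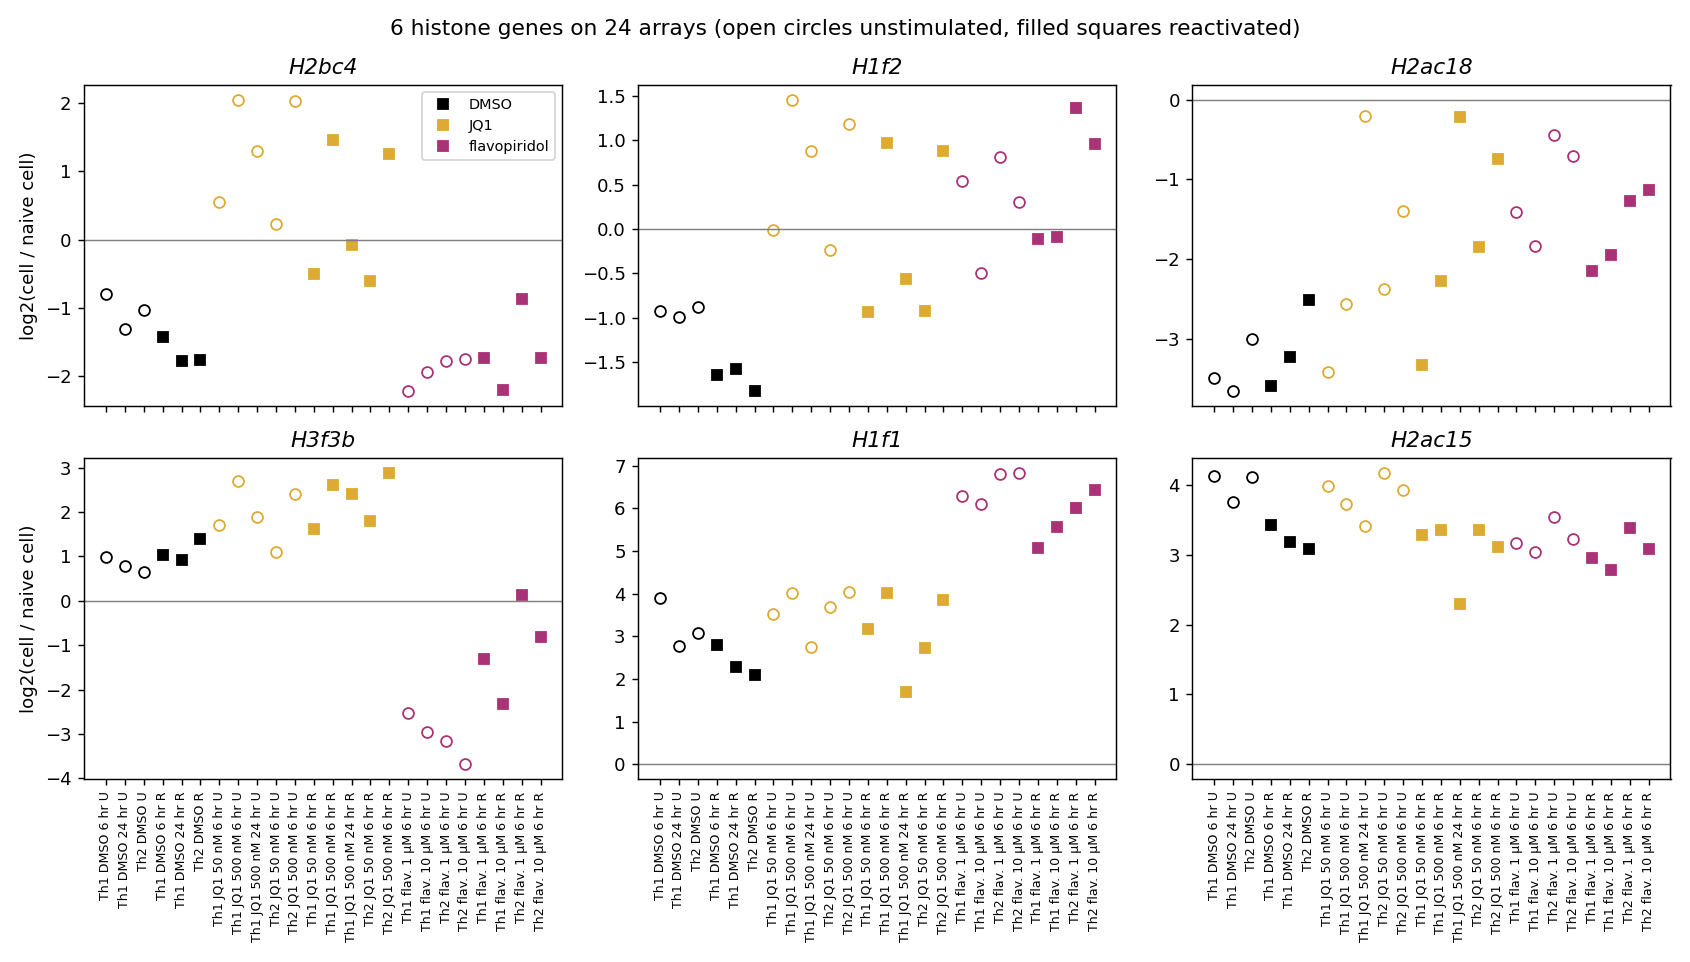
Log2 ratio to naive CD4+ T cells of 6 histone genes on all 24 arrays (horizontal axis; open circles unstimulated, filled squares reactivated; black DMSO, yellow JQ1, purple flavopiridol). H2bc4 lies between -1.77 and -0.80 with DMSO and reaches 2.05 with 500 nM JQ1, while H3f3b lies between 0.64 and 1.39 with DMSO and falls to -3.68 with flavopiridol.

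Whether a drug change depended on the state of the cells was tested as a difference of differences. With flavopiridol 3 histone genes were called, all with a higher change in reactivated than in unstimulated cells, against 8.95% of all genes higher and 6.92% lower. For H2az2 the changes were -1.14 and -1.01 in unstimulated and 0.53 and 0.42 in reactivated cells (Th1, Th2), a difference of 1.55 ± 0.21 (limma adjusted p = 0.0055). H2bc8 (1.45 ± 0.36) and H2bc21 (0.95 ± 0.24) were the others. With JQ1 4 genes had a higher change in reactivated cells and 1 a lower one, against 4.52% and 5.61%. With the spike-in shift 31 of 49 histone genes were called in this test, all with a lower change in reactivated cells, against 82.0% of all genes lower and 0.031% higher. H2bc21 rose by 1.51 and 1.65 in unstimulated and by 0.68 and 0.80 in reactivated cells, a difference of -0.84 ± 0.15 (adjusted p = 0.011). Its reactivated controls lay near background. H1f4 (1.03 ± 0.24), H2bc18 (0.91 ± 0.22), H4c12 (0.77 ± 0.21) and H3c14 (0.67 ± 0.17) differed the other way, and all 4 changed sign with the spike-in shift. On the reactivated Th1 array with 500 nM JQ1 the spike-in ratio was 0.94, where the DMSO arrays lay between -0.77 and -0.27. None of these calls held in all settings.

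Between Th1 and Th2 cells no histone gene was called to respond differently to flavopiridol or to JQ1, against 0% higher and 0.0161% lower of all genes with flavopiridol and 0% and 0% with JQ1 (limma). At an unadjusted p under 0.05, 1610 of all genes passed with flavopiridol and 904 with JQ1. Of the histone genes 14 of 48 did with flavopiridol, all with a lower change in Th1 cells, against 6.20% lower and 6.75% higher of all genes. The furthest were H1f1 (-1.58 ± 0.32), H1f4 (-1.54 ± 0.36) and H1f5 (-1.48 ± 0.32), with adjusted p of 0.20, 0.21 and 0.20. H1f5 changed by -0.085 and -0.53 in Th1 and by 1.12 and 1.23 in Th2 cells (unstimulated, reactivated). The flavopiridol arrays of Th1 and Th2 cells lay on different slides, so slide and cell type cannot be told apart. With JQ1 5 of 49 passed, all lower in Th1 cells, against 3.45% lower and 3.56% higher. The 6 hr JQ1 arrays of Th1 and Th2 cells also lay on different slides, so the same limit holds there.

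Th1 cells at 24 hr had 1 array a condition, so the values stand without a test. With 500 nM JQ1, 5 of 48 histone genes were 2-fold or more above DMSO in unstimulated cells and 0 below, against 2.32% and 5.0% of all genes, and 4 and 0 in reactivated cells, against 3.39% and 4.62%. The median histone gene was at -0.015 in unstimulated and -0.47 in reactivated cells, where the medians of all genes were -0.05 and -0.026. H2ac18 was 3.44 above DMSO in unstimulated and 2.99 in reactivated cells at 24 hr, after 0.92 and 1.31 at 6 hr. H2bc4 was 2.60 and 1.70 above DMSO at 24 hr, after 2.85 and 2.88, and H1f2 1.86 and 1.02, after 2.38 and 2.61. H3f3b was 1.1 and 1.48 above DMSO and H3f3a 1.13 and 1.00. H2ac18 was thus further from DMSO at the later time, and H2bc4 and H1f2 were nearer to it.

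Th1 cells at 6 hr and Th2 cells of uncertain time were also set side by side with DMSO, by single arrays and without a test. No histone gene differed 2-fold in unstimulated cells, where 3.99% of all genes were higher and 2.92% lower in Th1 cells. In reactivated cells H1f4 was 1.05 higher and H2ac18 1.07 lower in Th1 than in Th2 cells, 1 gene of 48 each way, against 2.68% and 2.08% of all genes. Against Th1 cells at 24 hr instead, H1f4 (0.68) and H2ac18 (-0.71) did not reach 2-fold in reactivated cells, and H2ax was lower in unstimulated Th1 cells (-1.2).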

How the data were processed

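Each condition was measured on 1 dual-colour Agilent mouse array, and the labels gave every group. In the deposited scanner output, both dyes had a median intensity for each spot and its background. Per the file headers they were made by Agilent Feature Extraction 10.7.1.1, with the software's own log10 ratio of Cy5 over Cy3, which was used as an alternative. A further table by the authors gave log2 values (cultured over naive cells) for 34710 probes. Its normalization is not given in the sources used here, and it followed the values computed here with r of 0.981 to 0.996 over the arrays.

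Background was corrected with normexp (offset 50) and loess was run on each array (limma 3.58.1, R 4.3.3). The design named mean signals, but medians were the signals in the files used. Of 62976 spots 59305 were not controls. Outlier spots were left out, spots of a probe were averaged, and a gene was read by its brightest probe. RefSeq (assembly GRCm38.p6) gave the symbols of the accessions, while the array grid was mm9. Genes entered a test with Cy3 well above background on 3 or more of its arrays. Fits used limma's moderated test with Benjamini-Hochberg adjustment over all genes, called at 0.05. Naive levels used the 6 DMSO arrays, reactivation used 3 pairs as a block, and each drug fit used 12 arrays (20 for the direct difference) with the 4 contexts as a block. The ratio against naive cells leaves out the spread between naive samples. A gene below background in a group on all its arrays got a bound in place of a fold. The number of arrays limits the precision. Code was tested on simulated data.

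Members, lists and named genes were chosen with earlier results of these data known. Named were the 6 variants, up to 3 risen and 2 fallen genes of each subfamily in each comparison, up to 2 genes of each list, and genes called in the tests of dependence, and other genes were added after their values were seen. A few genes that this rule or the marker lists name are not reported here. Markers of CD8 T cells (1 of 2 lower than naive), myeloid cells (1 of 2 tested lower) and NK cells (none tested) were also read. Alternatives changed the normalization, probe, filter, block, dose and arrays, and "Th1 arrays only" was added after the data were seen.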

Additional observations from a re-analysis of the deposited data

Results flagged for a closer look

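The change of 7 histone genes with a drug differed between reactivated and unstimulated cells by limma's test of the difference itself. These were 3 of 48 with flavopiridol, all with a higher change in reactivated cells, where 8.95% of all genes were called higher and 6.92% lower. With JQ1 they were 4 higher and 1 lower of 49, where 4.52% and 5.61% of all genes were, and none of these calls held in all settings run. Taken in both directions together, the histone counts are near or below the shares of all genes. With 10 µM flavopiridol the difference (reactivated minus unstimulated, log2) was 1.55 for H2az2, 1.45 for H2bc8 and 0.95 for H2bc21. With 500 nM JQ1 it was 1.03 for H1f4, 0.91 for H2bc18, 0.77 for H4c12, 0.67 for H3c14 and -0.84 for H2bc21. Each side of these differences rests on 2 contexts. The treated arrays lay on other slides than their controls, for flavopiridol in both cell types and for JQ1 in Th2 cells. H2bc21 met the criterion with both drugs and in opposite directions. It was well above background in Cy3 on 14 of 24 arrays and on 1 of the 3 reactivated DMSO arrays, so its reactivated controls lie near background. The part of slides, array scaling and cell type in these differences was not tested beyond the alternatives given for them.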

How the results depend on the processing

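Counts of histone genes moved by over 1.5 times as follows. With each array centred on its median, 9 genes were lower than naive cells unstimulated, 1 rose on reactivation, 5 rose with flavopiridol, 15 rose and 11 fell with JQ1, 6 were higher with flavopiridol than JQ1, and 0 (flavopiridol) and 2 (JQ1) depended on reactivation. With the spike-in shift, 4 rose and 13 fell on reactivation, 9 rose and 24 fell with flavopiridol, 4 rose and 0 fell with JQ1, 8 were higher and 12 lower with flavopiridol than JQ1, and 0 and 31 depended on reactivation. With Th1 arrays only, 1 rose on reactivation, 12 rose with flavopiridol, 11 rose and 0 fell with JQ1, and 9 were higher with flavopiridol than JQ1. At the lower dose 5 fell with flavopiridol, 3 rose and 0 fell with JQ1, and 11 were lower in the direct difference. Without the context block 7 fell with flavopiridol, and 9 rose and 0 fell with JQ1. Leaving the lower dose out of the fit (8 arrays), 3 fell with flavopiridol and 0 with JQ1. With slide as a random block 3 fell with flavopiridol and 9 of its changes depended on reactivation. JQ1 lowered 6 genes by Cy3 alone, 7 by the scanner software's log ratio, 1 without background correction and 1 with the mean of a gene's probes. Dependence on reactivation was called for 1 gene with each drug by the software's ratio, and for 2 genes with JQ1 without background correction. Falls with flavopiridol numbered 8 with the mean of a gene's probes.

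Leaving out 1 array at a time gave 37 genes higher and 4 to 6 lower than naive cells unstimulated, and 34 to 38 higher and 5 lower reactivated. It gave 0 to 2 higher and 21 to 22 lower on reactivation, 17 to 20 higher and 4 to 16 lower with flavopiridol, 22 to 29 higher and 0 to 2 lower with JQ1, and 15 to 16 higher and 12 to 23 lower in the direct difference. Dependence on reactivation ran from 1 to 11 (flavopiridol) and 0 to 4 (JQ1), and dependence on cell type was 0 throughout. Falls with flavopiridol numbered 4 without the unstimulated array at 10 µM of Th1 or of Th2 cells, 5 without the reactivated array at 10 µM of Th1 cells or either Th1 DMSO array, and 7 without the unstimulated Th2 DMSO array. The direct difference had 12 lower genes without the unstimulated Th1 array at 10 µM. The 11 came without the reactivated Th1 DMSO array, and the 0 of JQ1 without the reactivated Th2 DMSO array. A lone array left in an arm was assumed to vary like the others.

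The sign of single genes turned as follows. With flavopiridol and median centring H1f8 was at -0.24, H3c8 at -0.12 and H4c11 at -0.62. With the spike-in shift H4c11 was at -0.066 with flavopiridol, and H2ac8 at -0.15 and H4c8 at -0.10 with JQ1. With the mean of its probes H4c14 was at 0.61 with flavopiridol and 0.34 in the direct difference. In the direct difference, median centring gave H1f8 -0.035, H2ac15 0.071, H3c7 -0.025 and H4c3 -0.13, and the lower dose gave H1f2 1.18, H1f10 0.36 and H2bc18 0.12. For the dependence of JQ1 changes on reactivation the spike-in shift gave H1f4 -0.16, H2bc18 -0.28, H4c12 -0.42 and H3c14 -0.52. The cause was not tested. By the replicate numbers of the labels, no paired analysis was possible because each condition had 1 array. The fits with pairs of states (reactivation) and contexts (drugs) as blocks are those reported.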

Other observations

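The reactivated Th1 array with 500 nM JQ1 at 24 hr held the lowest level over all 24 arrays for 22 of the 41 histone genes above background on every array. The 22 include the 7 bright H2A genes, whose values are not separate measurements. H1f5 stood at 4.36, H1f1 at 1.70, H2ac19 at 1.95, H2ac22 at 2.86 and H3c14 at 2.97, each the lowest value of its gene. The median proliferation marker on that array was 4.12, against 4.87 on the reactivated DMSO array at 24 hr. These are values of 1 array, chosen after they were seen, and no test was run.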
